A study of Danio rerio with 6 samples.

Results

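The genes described here encode chromatin-modifying enzymes, the writers and erasers of histone and DNA marks together with the CHD remodelers. They were chosen by symbol, with case ignored: histone deacetylases other than hdac6, sirtuins, lysine demethylases (kdm), the kmt and setd lysine methyltransferases, the core subunits of Polycomb repressive complex 2 (ezh, suz12 and eed), protein arginine methyltransferases (prmt), lysine acetyltransferases (kat), DNA methyltransferases (dnmt), the tet dioxygenases and the chd genes. The rule reads symbols alone, and 104 of the 31701 genes with a value in every sample were members. The study compared hair cells, the mechanosensory receptors of the ear, with non-sensory surrounding cells (nsSCs) from the lagena, utricle and saccule of adult zebrafish. Each cell type had 3 samples of 1000 cells. All fish were females of the strain Tg(pou4f3:GAP-GFP)s273t, aged 11 to 13 months, so that both cell types carried the same transgene. The pou4f3 promoter drives a membrane-targeted GFP in hair cells. Hair cells were picked singly by GFP and a visible stereocilia bundle, and nsSCs by the lack of both, so that the nsSCs are defined by what they lack and hold more than 1 kind of cell. Cells of several fish were pooled in a sample, and the 3 sensory organs cannot be told apart.

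Histone tails carry acetyl and methyl groups that change how tightly DNA is packed and which proteins bind to it. Acetyltransferases and methyltransferases add these groups and deacetylases and demethylases remove them, while DNA methyltransferases methylate cytosine and TET enzymes oxidize the methyl group. In sensory epithelia of the ear these enzymes are known mainly from hair cell development and regeneration, with CHD7, the gene mutated in human CHARGE syndrome, as an example that affects ear formation.

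Marker genes of each cell type were counted. Some of them, such as pvalb8, pvalb9, ctgfa and wnt2, are given by the study as differing in these same samples. The counts are therefore no independent check of the labels. All 23 tested hair cell marker entries, which include a repeated cdh23, were higher in hair cells. In the nsSCs, 63 of 74 tested markers of blood, vessels, glia, connective tissue, pigment cells and muscle were higher, and so were 10 of 15 markers of the surrounding epithelium, whereas tectb and otogl of that last list were higher in hair cells. The values are RPKM, which scale read counts by transcript length and by the mapped reads of a library. Their total was 704199 to 713194 in the hair cell samples and 976739 to 1012812 in the nsSC samples, and 17308 to 18936 genes against 22021 to 22470 had a value above 0. In such bulk samples, fewer cells of a type and less RNA per cell cannot be told apart.

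Chromatin enzymes were moderately expressed in both cell types, and most differed by less than 2-fold between them. Of the 104 members, 103 reached a mean of 0.1 RPKM in at least 1 cell type and entered the limma fit on log2(RPKM + 0.1), a scale on which fold changes of low genes are understated. Calls required at least a 2-fold difference and an adjusted p under 0.05. By this measure 31 members were higher in hair cells and 12 lower there than in nsSCs, and 60 were not called. The call rate was 41.7% among members against 66.4% of the 22374 genes tested. By direction, 30.1% of the members were higher in hair cells, against 31.0% of all genes, and 11.7% were higher in nsSCs, against 35.4%. The median absolute log2 fold change was 0.75 for the members and 1.67 for all tested genes. Among genes whose mean reached 1 RPKM in either cell type, 39.6% of 96 members and 65.9% of 16860 genes were called, so that the lower rate was also present without the lowest genes.

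The separation of the samples, which uses no fold minimum, was also counted. In 61 members (59.2%) all 3 hair cell samples lay above all 3 nsSC samples, in 20 members (19.4%) below them, and in 22 the samples overlapped. Over all tested genes, the samples did not overlap in 85.1%, with hair cells above in 42.5% and nsSCs above in 42.6%. After median-ratio scaling, an alternative chosen for this count after seeing the data, the members had 41 above (39.8%), 36 below (35.0%) and 26 overlapping, and all tested genes 34.9% above and 49.9% below. The spread between replicates was like that of other genes. The median coefficient of variation of members with at least 1 RPKM was 8.37% in hair cells and 9.76% in nsSCs, beside 8.05% and 9.47% for all tested genes of that level.

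The members added up to 1204 to 1243 RPKM in the hair cell samples and 822 to 855 RPKM in the nsSC samples, or 0.171 to 0.176% and 0.0842 to 0.0860% of all RPKM. In hair cells the mean lay between 1 and 10 RPKM for 59 members, between 10 and 100 for 28, at 100 or above for 3 and below 1 for the other 14. In nsSCs the corresponding counts were 75, 14, 2 and 13. The median log2 fold change was 0.51 for the members and 0.00 for all tested genes, and 0.54 and 0.33 for those whose mean reached 1 RPKM. How the samples are scaled moved both medians alike. Median-ratio scaling shifted the median of all tested genes by -0.48, equal totals by 0.49 and equal totals without mitochondrial genes by -0.37, and the member median minus that of all genes stayed at 0.51, 0.51 and 0.52. The split of the calls was 31 against 12 with the RPKM as deposited, 22 against 16 after median-ratio scaling, 51 against 10 with equal totals and 24 against 15 with equal totals without mitochondrial genes. The share of calls that were higher in hair cells was thus 72.1%, 57.9%, 83.6% and 61.5%. Over all tested genes the corresponding splits were 6929 against 7917, 5471 against 9093, 8756 against 7024 and 5752 against 8779. The scaling thus moved the split of all genes in the same direction.

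**Figure D1:**
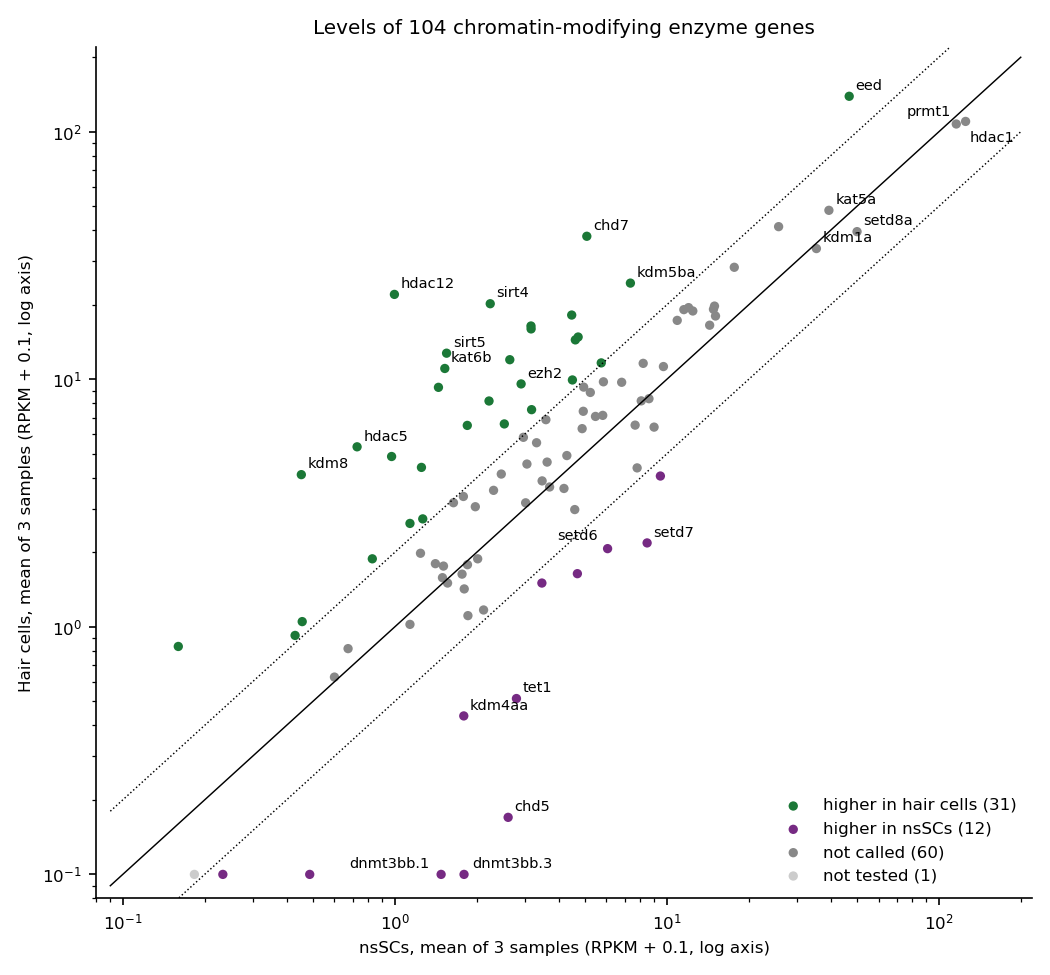
Mean level of each of the 104 genes in nsSCs (horizontal) and hair cells (vertical), as RPKM + 0.1 on log axes, each the mean of 3 samples; the solid line marks equal levels, the dotted lines a 2-fold difference, and colour the limma call. Most points lie near the solid line, 31 lie above it as called higher in hair cells, 12 lie below it as called higher in nsSCs, and the points at the lower edge are genes listed at 0 in hair cells.

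The sirtuins, deacetylases that use NAD+, were the class with the largest share of genes higher in hair cells, 5 of 7, and none was higher in nsSCs. The share of 71.4% stands beside 31.0% of all tested genes, of which 35.4% were higher in nsSCs. Sirt4, a mitochondrial sirtuin, had 21.1, 19.9 and 19.3 RPKM in hair cells and 2.21, 2.21 and 2.01 RPKM in nsSCs. The groups lay far apart, with a log2 fold change of 3.17 ± 0.09 (SE; limma adjusted p = 7.3e-08). Sirt5, a mitochondrial desuccinylase, had 12.6, 13.2 and 12.2 RPKM in hair cells and 1.42, 1.86 and 1.07 RPKM in nsSCs, a log2 fold change of 3.07 ± 0.19 (adjusted p = 4.3e-06). Sirt1, the nuclear sirtuin best known for deacetylating histones and transcription factors, had 17.2, 15.6 and 14.8 RPKM against 2.76, 3.17 and 3.28 RPKM, a log2 fold change of 2.33 ± 0.10 (adjusted p = 8.0e-07). In all 3 genes the lowest hair cell sample was above the highest nsSC sample several-fold.

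Sirt6, a chromatin-bound sirtuin that acts on histone H3, had 16.7, 13.7 and 12.6 RPKM in hair cells and 4.17, 4.06 and 5.30 RPKM in nsSCs, a log2 fold change of 1.65 ± 0.15 (adjusted p = 3.2e-05). Sirt7, the nucleolar sirtuin, had 9.15, 9.85 and 8.54 RPKM against 1.66, 0.79 and 1.59 RPKM, a log2 fold change of 2.74 ± 0.27 (adjusted p = 5.2e-05). These 5 calls held under all 16 alternative settings that kept the 2-fold minimum. The other mitochondrial sirtuin, sirt3, had 6.24, 3.57 and 4.65 RPKM against 4.83, 3.75 and 3.99 RPKM, and its samples overlapped. Sirt2, mainly a cytoplasmic enzyme, had 17.3, 18.3 and 21.7 RPKM against 15.9, 14.4 and 13.9 RPKM. Its samples did not overlap, but the log2 fold change of 0.37 ± 0.10 was below 2-fold, and was -0.11 after median-ratio scaling. The mitochondrial members were therefore on both sides, sirt4 and sirt5 called and sirt3 not. Summed over the 7 genes, the level was 93.8 to 100.3 RPKM in hair cells and 30.2 to 33.0 RPKM in nsSCs, a ratio of the means of 3.05, or 2.19 after median-ratio scaling.

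The zinc-dependent histone deacetylases differed in both directions: 4 of 11 tested entries were higher in hair cells and 2 lower there than in nsSCs. These shares, 36.4% and 18.2%, stand beside 31.0% and 35.4% of all tested genes. On this scale hdac12 had the largest log2 fold change of any member, with 21.9, 21.2 and 22.6 RPKM in hair cells and 0.81, 0.82 and 1.06 RPKM in nsSCs. The log2 fold change was 4.47 ± 0.12 (limma adjusted p = 8.1e-08), and it was 4.02 after median-ratio scaling, where chd5 (-4.27), with its low level in hair cells, and the dnmt3bb.1 and dnmt3bb.3 genes had larger absolute values. Hdac11, the sole class IV enzyme, had 17.0, 15.4 and 16.6 RPKM in hair cells and 3.25, 2.45 and 3.50 RPKM in nsSCs, a log2 fold change of 2.39 ± 0.14 (adjusted p = 3.4e-06). Both genes were thus high in every hair cell sample and low in every nsSC sample.

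The class IIa deacetylases, which shuttle between nucleus and cytoplasm and act mainly by recruiting other proteins, did not share a direction. Hdac5 had 5.07, 5.30 and 5.34 RPKM in hair cells and 0.63, 0.62 and 0.63 RPKM in nsSCs, a log2 fold change of 2.88 ± 0.11 (adjusted p = 3.8e-07). Hdac9b had 1.01, 1.86 and 1.75 RPKM in hair cells and 3.98, 5.45 and 4.34 RPKM in nsSCs, a log2 fold change of -1.55 ± 0.25 (adjusted p = 0.00079). Hdac4 overlapped between the cell types, at 3.57 ± 0.13 RPKM (SD, n = 3) in hair cells against 3.61 ± 1.03 RPKM in nsSCs. Hdac7b was low, with 1.20, 0.77 and 0.88 RPKM against 0.31, 0.62 and 0.14 RPKM. Its call (log2 fold change 1.32 ± 0.40, adjusted p = 0.017) was lost without hair cell replicate 1 (log2 fold change 1.16, adjusted p = 0.053), nsSC replicate 1 (1.32, adjusted p = 0.062) or nsSC replicate 3 (0.93, adjusted p = 0.044). Hdac10, a class IIb enzyme known as a polyamine deacetylase, had 1.28, 1.36 and 1.57 RPKM in hair cells and 2.63, 3.66 and 3.83 RPKM in nsSCs, a log2 fold change of -1.19 ± 0.18 (adjusted p = 0.00054). With equal totals hdac10 was no longer called.

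The class I deacetylases, the catalytic subunits of corepressor complexes, were not called, and hdac1 and hdac3 were the most abundant deacetylases of this class by their mean over the 6 samples. Hdac1, the core of the NuRD, Sin3 and CoREST complexes, had 110.9, 111.6 and 107.7 RPKM in hair cells and 116.5, 129.4 and 129.9 RPKM in nsSCs. The groups did not overlap, and the log2 fold change was -0.19 ± 0.05. Hdac3, the deacetylase of the NCoR complex, had 26.5, 28.1 and 30.1 RPKM against 17.7, 17.2 and 17.9 RPKM, a log2 fold change of 0.68 ± 0.06 with no overlap. Hdac8 had 8.08 ± 0.43 and 7.95 ± 1.18 RPKM (SD, n = 3 each) and overlapped. A further entry under the hdac8 symbol had 3.79 ± 0.97 and 3.38 ± 0.30 RPKM. It is named phka1 in its other name field and phka1a in a reference list of names. That entry thus probably does not measure hdac8, and is counted as a member by its symbol only. Summed over the 10 hdac genes without that entry, the level was 196.8 to 198.2 RPKM in hair cells and 158.5 to 171.8 RPKM in nsSCs; the ratio of 1.18 fell below 1, to 0.85, after median-ratio scaling.

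**Figure D2:**
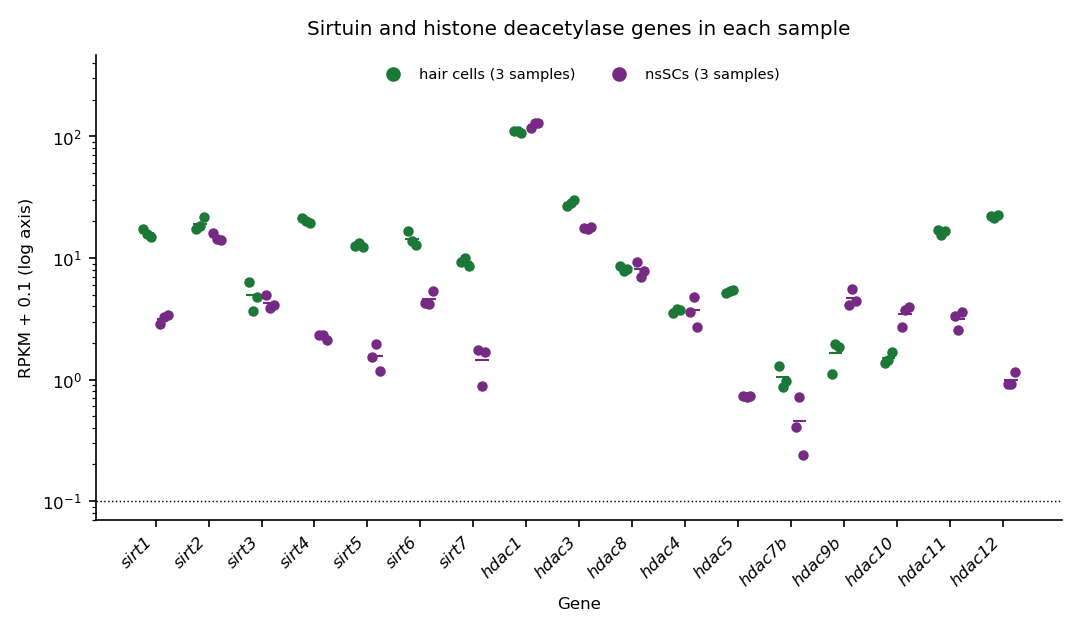
RPKM + 0.1 on a log axis for the 7 sirtuin and 10 histone deacetylase genes; each point is a sample, 3 of hair cells (green) and 3 of nsSCs (purple), the short lines are the means and the dotted line marks a value of 0. Sirt1, sirt4, sirt5, sirt6, sirt7, hdac5, hdac11 and hdac12 lie apart with hair cells above, hdac9b and hdac10 with nsSCs above, and hdac1 is near 100 RPKM in all 6 samples.

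Among the partner genes of the class I complexes, listed apart from the members, 7 of 35 tested were higher in hair cells and 2 lower there than in nsSCs, while 26 were not called. Of all tested genes, 31.0% and 35.4% were called in these directions. Mbd2, the methyl-CpG reader of NuRD, had 52.9 ± 2.31 RPKM in hair cells against 23.6 ± 0.34 RPKM in nsSCs (SD, n = 3 each), and its relative mbd3b had 1.83 ± 0.11 and 8.68 ± 0.76 RPKM, with calls in opposite directions. Gatad2ab and ing2 were higher in hair cells, with log2 fold changes of 1.34 and 1.61. Rest, the repressor of neuronal genes that recruits CoREST and Sin3, was higher in nsSCs, with 0.62 ± 0.02 RPKM against 1.61 ± 0.19 RPKM.

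With the RPKM as deposited, the lysine acetyltransferases were the class called least often, at 11.1% against 66.4% of all tested genes. This low rate rests on the scaling. With equal totals kat2a, kat5b, kat7a, kat7b and kat8 were called as well, and 70.9% of all tested genes were called. In 7 of the 9 (77.8%) all hair cell samples lay above all nsSC samples, and in 1 (11.1%) below them. Over all tested genes these shares were 42.5% and 42.6%, so that 85.1% did not overlap. Only kat6b of the 9 was called on the deposited scale, with 10.9, 11.3 and 10.8 RPKM in hair cells and 1.28, 1.51 and 1.49 RPKM in nsSCs. The log2 fold change of this MYST-family enzyme was 2.86 ± 0.11 (limma adjusted p = 3.0e-07). Its close relative kat6a had 1.24, 1.38 and 1.59 RPKM against 1.47, 1.55 and 1.37 RPKM, and overlapped. Kat6a and kat6b had similar levels in nsSCs, whereas kat6b exceeded kat6a in every hair cell sample. Kat5a, the Tip60 acetyltransferase, was the most abundant of the class at 47.8, 48.2 and 48.2 RPKM in hair cells and 38.1, 41.2 and 38.7 RPKM in nsSCs. Kat8, the main writer of acetylated lysine 16 on histone H4, had 42.8, 41.4 and 39.6 RPKM against 23.9, 25.8 and 27.3 RPKM. In both genes all hair cell samples lay above all nsSC samples by less than 2-fold, with log2 fold changes of 0.29 ± 0.05 and 0.68 ± 0.07. After median-ratio scaling these were -0.19 and 0.21, so that the sign of kat5a rests on the scaling.

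Kat5b, kat7a and kat7b also had no overlap, with hair cell means of 17.2 to 19.4 RPKM, nsSC means of 10.8 to 11.9 RPKM and log2 fold changes of 0.66 to 0.73. The GCN5 and PCAF genes were near the limit of the call. Kat2a had 2.69, 3.88 and 2.65 RPKM in hair cells and 1.34, 1.88 and 1.41 RPKM in nsSCs, a log2 fold change of 0.94 ± 0.20, and passed 2-fold without hair cell replicate 1 (1.02), hair cell replicate 3 (1.03) or nsSC replicate 2 (1.08). Kat2b had 1.06, 1.06 and 1.09 RPKM against 2.31, 2.35 and 1.40 RPKM, a log2 fold change of -0.82 ± 0.21, and passed 2-fold without nsSC replicate 3 (-1.06). The summed level of the 9 acetyltransferases was 157.2 to 164.9 RPKM in hair cells and 101.9 to 110.0 RPKM in nsSCs. The ratio of the means was 1.53, or 1.1 after median-ratio scaling.

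Of the lysine demethylases, 7 of 21 tested entries were higher in hair cells, 1 was higher in nsSCs and 13 were not called. The shares of 33.3% and 4.8% stand beside 31.0% and 35.4% of all tested genes. The KDM5 enzymes remove methyl groups from lysine 4 of histone H3 (H3K4). Kdm5c had 17.1, 18.6 and 18.5 RPKM in hair cells and 4.25, 4.21 and 4.65 RPKM in nsSCs, a log2 fold change of 2.02 ± 0.08 (limma adjusted p = 4.3e-07). Kdm5ba had 22.3, 26.7 and 24.1 RPKM against 7.09, 6.56 and 8.09 RPKM, a log2 fold change of 1.74 ± 0.11 (adjusted p = 4.0e-06). Its duplicate kdm5bb was lower in level, with 4.45 ± 0.76 and 2.96 ± 0.22 RPKM (SD, n = 3 each), and was not called. The other H3K4 demethylase, kdm1a (LSD1), was the most abundant of the class, with 31.8, 34.5 and 34.6 RPKM in hair cells and 32.3, 32.7 and 41.2 RPKM in nsSCs, and overlapped.

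The KDM4 enzymes act on lysines 9 and 36 of histone H3. Kdm4c had 13.5, 11.5 and 10.6 RPKM in hair cells and 2.93, 1.72 and 2.99 RPKM in nsSCs, a log2 fold change of 2.21 ± 0.22 (adjusted p = 6.3e-05). Kdm4aa was the only demethylase higher in nsSCs, with 0.41, 0.37 and 0.23 RPKM in hair cells and 1.57, 1.77 and 1.74 RPKM in nsSCs, a log2 fold change of -2.06 ± 0.20 (adjusted p = 4.9e-05). The duplicate kdm4ab had 10.4, 7.92 and 7.96 RPKM against 5.19, 5.07 and 5.14 RPKM and a log2 fold change of 0.75 ± 0.12, so that it had the opposite sign to kdm4aa but was not called. Kdm4b, at 6.98 ± 1.09 and 5.37 ± 0.15 RPKM, was not called either.

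Kdm7ab, a demethylase of lysines 9 and 27, had 14.04, 15.9 and 14.2 RPKM in hair cells and 4.90, 5.09 and 3.87 RPKM in nsSCs, a log2 fold change of 1.66 ± 0.12 (adjusted p = 1.2e-05). Its duplicate kdm7aa had 3.25, 3.00 and 2.38 RPKM against 4.53, 4.24 and 4.69 RPKM, a log2 fold change of -0.63 ± 0.14 without a call. Kdm8, a JmjC-domain protein also known as a hydroxylase, had 4.31, 3.47 and 4.28 RPKM against 0.09, 0.59 and 0.38 RPKM. Its log2 fold change was 3.37 ± 0.45 (adjusted p = 0.0003), the largest of the class on this scale, and the nsSC samples spread widely.

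The KDM6 enzymes erase methylation of lysine 27 (H3K27). Kdm6a had 8.09, 6.86 and 7.37 RPKM in hair cells and 2.90, 2.53 and 3.82 RPKM in nsSCs, a log2 fold change of 1.26 ± 0.16 (adjusted p = 0.00026). After median-ratio scaling it was 0.79 and no longer called. Kdm6al had 4.75, 3.88 and 4.23 RPKM against 7.84, 10.7 and 4.48 RPKM, so that nsSC replicate 3 was close to the hair cells. Its log2 fold change was -0.74 ± 0.30 with all samples and -1.08 without nsSC replicate 3, which passed the call. Kdm6ba and kdm6bb had 6.22 ± 0.60 and 6.31 ± 0.27 RPKM in hair cells and 4.78 ± 0.53 and 8.88 ± 0.62 RPKM in nsSCs, and neither was called.

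The KDM2 genes, erasers of methylated lysine 36, apart from a second kdm2bb row lay between 2.21 and 7.33 RPKM in mean. Kdm2aa, kdm2ab and kdm2ba had log2 fold changes of 0.60 to 0.73 with no call. Kdm2bb was on 2 rows. The row with the reference identifier had 6.77 ± 1.01 and 3.49 ± 0.05 RPKM and a log2 fold change of 0.93 ± 0.12, which was 1.02 and called without hair cell replicate 1. The second kdm2bb row, listed as a further copy, had 5.61, 5.48 and 3.24 RPKM in hair cells and 0.13, 1.55 and 0.94 RPKM in nsSCs, a log2 fold change of 2.69 ± 0.70 (adjusted p = 0.009). Kdm3b, an eraser of methylated lysine 9, had 7.72, 8.13 and 8.90 RPKM against 9.57, 7.53 and 8.39 RPKM and overlapped.

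**Figure D3:**
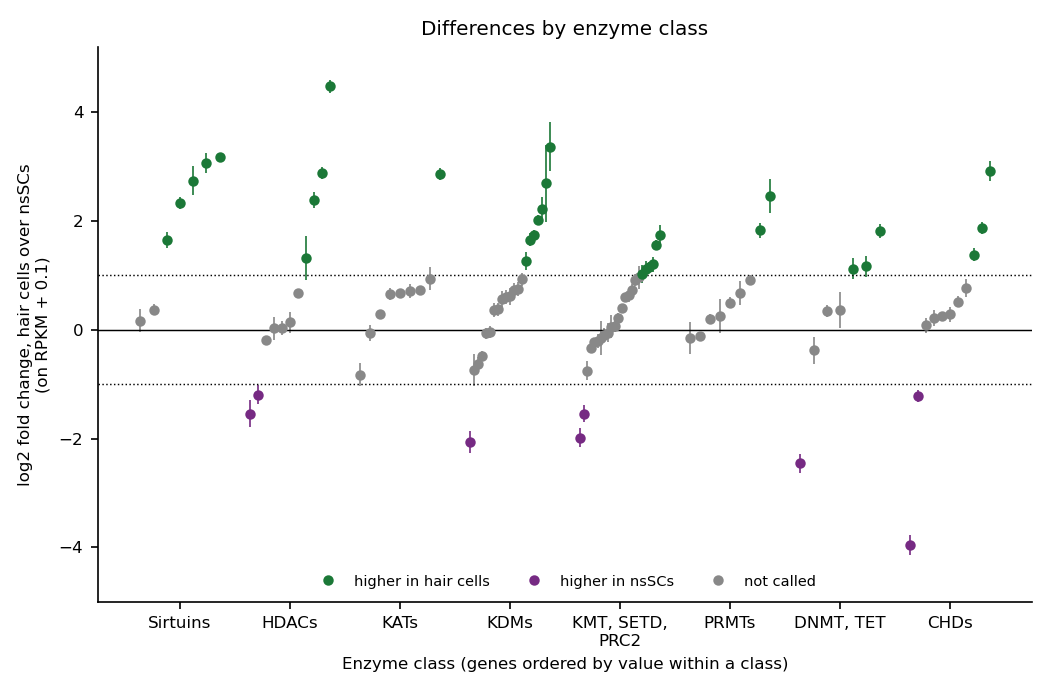
Log2 fold change of hair cells over nsSCs on RPKM + 0.1 for each tested gene in its enzyme class, with bars of 1 SE from limma and colours for the call; dotted lines mark 2-fold, and genes listed at 0 in every hair cell sample are not drawn. The sirtuins reach 3.17 with no gene below 0, a single acetyltransferase (kat6b, 2.86) stands apart, and chd5 has the lowest value, -3.95.

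The lysine methyltransferase and SET-domain genes, with the PRC2 core, gave 6 members higher in hair cells, 3 higher in nsSCs and 16 not called of 25 tested. Both shares lie below the 31.0% and 35.4% of all tested genes called in these directions. PRC2 writes methylation of H3K27 and keeps genes silent. Eed, the subunit that reads the mark, was the most abundant of all members in hair cells, with 141.8, 152.5 and 122.8 RPKM against 47.9, 44.3 and 48.0 RPKM in nsSCs. The log2 fold change was 1.57 ± 0.08 (limma adjusted p = 2.1e-06). Ezh2, the catalytic subunit known from dividing cells, had 10.04, 9.98 and 8.42 RPKM against 3.41, 2.10 and 2.93 RPKM, a log2 fold change of 1.74 ± 0.19 (adjusted p = 8.6e-05). Of 21 tested genes of cell proliferation, 18 were higher in nsSCs and only rrm1 was higher in hair cells. Their summed level was 61.8 to 64.0 RPKM in hair cells and 96.4 to 107.3 RPKM in nsSCs, and 14 of 25 found were at 0 in every hair cell sample. Ezh2 thus moved in the other direction from that list, and whether they are related was not tested.

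Ezh1, the catalytic subunit known from resting cells, had 20.5, 19.5 and 18.9 RPKM in hair cells and 16.2, 14.5 and 13.8 RPKM in nsSCs, without overlap and with a log2 fold change of 0.40 ± 0.08. Ezh1 exceeded ezh2 in every sample, by a mean of 19.7 to 9.48 RPKM in hair cells and of 14.9 to 2.81 RPKM in nsSCs. Suz12b had 18.02, 18.9 and 19.4 RPKM against 12.7, 12.5 and 11.9 RPKM, a log2 fold change of 0.60 ± 0.06, and suz12a overlapped at 1.68 ± 0.28 and 1.75 ± 0.29 RPKM. Eed, ezh2, ezh1 and suz12b were thus without overlap between the cell types, and only eed and ezh2 passed 2-fold. Of all tested genes, 85.1% had no overlap. After median-ratio scaling the log2 fold changes of ezh1 and suz12b were -0.07 and 0.12. Eed and ezh2 were still called there, at 1.09 and 1.27. The 2 EZH genes summed to 27.4 to 30.5 RPKM in hair cells and 16.6 to 19.7 RPKM in nsSCs, and the 4 KDM6 erasers to 22.9 to 25.6 RPKM and 22.4 to 27.8 RPKM, which overlapped.

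Among other Polycomb proteins, 9 of 32 tested were higher in hair cells and 5 lower there than in nsSCs, while 18 were not called. Of all tested genes, 31.0% and 35.4% were called in these directions. The CBX subunits, which read methylated H3K27 in PRC1, were on both sides. Cbx2 had 37.7 ± 1.91 RPKM in hair cells against 3.55 ± 0.85 RPKM in nsSCs, and cbx8b had 18.4 ± 2.25 and 3.56 ± 0.07 RPKM. Cbx6a and cbx7b were higher in nsSCs, with 1.28 ± 0.19 against 6.02 ± 0.67 RPKM and 0.44 ± 0.18 against 2.95 ± 0.80 RPKM. Yaf2, a partner of RING1 proteins, had 110.4 ± 0.16 and 45.4 ± 3.23 RPKM. Phf19, which helps PRC2 bind to chromatin, was listed at 0 in every sample of hair cells and had 2.71 ± 0.32 RPKM in nsSCs.

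The writers of H3K4 methylation mostly differed by less than 2-fold. Of the 10 kmt2 and setd1 genes, kmt2ba was called higher in hair cells, setd1bb higher in nsSCs and 8 were not called. The share in each direction was 1 of 10, against 31.0% and 35.4% of all tested genes. Kmt2ba had 2.54, 2.69 and 2.32 RPKM in hair cells and 1.09, 1.1 and 0.92 RPKM in nsSCs, a log2 fold change of 1.20 ± 0.14 (adjusted p = 0.00012) that was 0.75 after median-ratio scaling. Setd1bb was listed at 0 in every sample of hair cells and had only 0.10, 0.12 and 0.18 RPKM in nsSCs. The 8 others were kmt2a, kmt2bb, kmt2ca, kmt2cb, kmt2d, kmt2e, setd1a and setd1ba, with hair cell means of 0.53 to 9.67 RPKM, nsSC means of 0.50 to 7.55 RPKM and log2 fold changes of -0.23 to 0.91. Of 16 tested partner genes listed for COMPASS complexes, 5 were higher in hair cells and 1 lower there than in nsSCs. Of all tested genes, 31.0% and 35.4% were called in these directions. The list is not limited to subunits that all of these complexes share. Wdr5 (8.52 ± 0.52 against 12.8 ± 0.60 RPKM) and rbbp5 (23.8 ± 1.78 against 28.6 ± 1.87 RPKM) were lower in hair cells without a call. Ash2l (18.2 ± 1.78 against 16.2 ± 2.29 RPKM) was not called either. Dpy30 had 87.2 ± 1.13 against 28.3 ± 4.46 RPKM and ncoa6 had 12.7 ± 0.98 against 1.95 ± 0.05 RPKM. The duplicates psip1b and psip1a were called in opposite directions, with 38.8 ± 1.68 against 12.1 ± 1.14 RPKM and 7.01 ± 0.81 against 14.2 ± 0.29 RPKM.

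The remaining SET-domain genes act on other lysines or other proteins. Setd7, which monomethylates H3K4 and several other proteins, had 1.70, 2.71 and 1.84 RPKM in hair cells and 8.29, 8.34 and 8.46 RPKM in nsSCs, a log2 fold change of -1.98 ± 0.18 (adjusted p = 3.2e-05). Setd6, known in mammals for methylating the RelA subunit of NF-kappaB, had 2.15, 2.10 and 1.66 RPKM against 6.95, 5.30 and 5.62 RPKM, a log2 fold change of -1.55 ± 0.16 (adjusted p = 6.4e-05). In both genes all nsSC samples exceeded all hair cell samples. Setd2, the writer of trimethylated lysine 36, had 2.72, 2.46 and 2.71 RPKM against 1.21, 1.31 and 0.98 RPKM, and setd4 had 9.89, 10.1 and 9.51 RPKM against 4.76, 3.89 and 4.54 RPKM. Their log2 fold changes of 1.12 ± 0.15 and 1.15 ± 0.10 were called, but were 0.66 and 0.68 and not called after median-ratio scaling.

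Setdb1b, a writer of trimethylated lysine 9, had 9.78, 11.7 and 13.2 RPKM in hair cells and 4.54, 6.06 and 6.32 RPKM in nsSCs. Its log2 fold change of 1.02 ± 0.16 (adjusted p = 0.0008) was barely past 2-fold, and was 0.92 without hair cell replicate 3 and 0.88 without nsSC replicate 1. After median-ratio scaling it was 0.55 and not called. Setdb1b was also not called with 1 RPKM added or with equal totals without mitochondrial genes. Its duplicate setdb1a had 4.30, 6.46 and 6.43 RPKM against 3.13, 3.24 and 2.24 RPKM and a log2 fold change of 0.97 ± 0.21, which was 1.16 without hair cell replicate 1, 1.04 without nsSC replicate 1 and 1.06 without nsSC replicate 2. The duplicates thus differed by nearly the same factor and fell on either side of the call. Setd8a, which monomethylates lysine 20 of histone H4, had 41.8, 36.8 and 39.6 RPKM against 49.7, 50.8 and 49.3 RPKM and a log2 fold change of -0.34 ± 0.06. Setd8b, the member that was not tested, was listed at 0 in every sample of hair cells and at 0.06 to 0.12 RPKM in nsSCs. Setd3, known as an actin histidine methyltransferase, had 11.2 ± 0.45 and 9.62 ± 0.84 RPKM, setd5 1.01 ± 0.20 and 1.76 ± 0.16 RPKM and SETD9 0.92 ± 0.30 and 1.04 ± 0.37 RPKM, all without a call.

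The arginine methyltransferases gave 2 of 9 genes higher in hair cells and none higher in nsSCs. The share of 22.2% stands beside 31.0% of all tested genes, of which 35.4% were higher in nsSCs. Prmt6, which methylates arginine 2 of histone H3, had 6.19, 6.36 and 6.69 RPKM in hair cells and 1.48, 1.82 and 1.94 RPKM in nsSCs, a log2 fold change of 1.83 ± 0.13 (limma adjusted p = 9.2e-06). The entry PRMT8_(1_of_many) had 0.68, 0.80 and 0.72 RPKM against 0.05, 0.13 and 0 RPKM, a log2 fold change of 2.46 ± 0.31 (adjusted p = 0.0002) that was 0.71 and not called with 1 RPKM added and 4.08 with 0.01 RPKM added, while prmt8b overlapped at 0.72 ± 0.26 and 0.57 ± 0.16 RPKM. Prmt1, the main asymmetric arginine methyltransferase, had 108, 104 and 110 RPKM against 111, 116 and 121 RPKM and a log2 fold change of -0.11 ± 0.05. It had a similar level to hdac1 in both cell types. Prmt3, a methyltransferase of ribosomal protein, had 18.3, 16.7 and 14.4 RPKM against 14.2, 14.04 and 14.6 RPKM and overlapped. Prmt7 had 9.20 ± 0.78 and 4.85 ± 0.12 RPKM, close to 2-fold with a log2 fold change of 0.91 ± 0.09, and prmt5, the main symmetric enzyme, had 11.5 ± 1.36 and 8.09 ± 0.23 RPKM. Prmt2 and prmt9 stayed below 2 RPKM in mean in both cell types without a call.

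The DNA methylation genes were expressed at low levels, with 4 of 10 higher in nsSCs and 3 higher in hair cells. These shares, 40.0% and 30.0%, lie near the 35.4% and 31.0% of all tested genes. No gene of the class reached 10 RPKM in a mean. Dnmt3ab, a de novo methyltransferase, had 4.09, 4.41 and 4.42 RPKM in hair cells and 0.99, 1.24 and 1.23 RPKM in nsSCs, a log2 fold change of 1.82 ± 0.13 (limma adjusted p = 1.1e-05). Its duplicate dnmt3aa had 2.25, 1.69 and 1.16 RPKM against 0.80, 1.64 and 1.49 RPKM and overlapped.

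Dnmt1, which copies methylation to new strands at replication, had 2.25, 1.67 and 1.43 RPKM in hair cells and 0.71, 0.81 and 0.66 RPKM in nsSCs. Its log2 fold change of 1.17 ± 0.19 (adjusted p = 0.00096) was 0.997 and not called without hair cell replicate 1. Dnmt3ba had 0.81, 0.89 and 0.77 RPKM against 0.23, 0.42 and 0.34 RPKM. Its log2 fold change of 1.13 ± 0.20 (adjusted p = 0.0014) was 0.95 and not called without nsSC replicate 1. Neither was called after median-ratio scaling, at 0.73 each, and dnmt1, like ezh2, had the other direction from most proliferation genes given above.

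A different pattern was seen for the dnmt3bb genes. Dnmt3bb.1 was at 0 in each of the 3 hair cell samples and had 1.26, 1.19 and 1.69 RPKM in nsSCs. Dnmt3bb.2 was listed at 0 in the same samples and had 0.34, 0.51 and 0.31 RPKM in nsSCs, and dnmt3bb.3 likewise was at 0 against 1.52, 1.45 and 2.12 RPKM. In the RefSeq annotation of GRCz12tu these 3 genes are neighbours on chromosome 23, and how reads shared by similar copies were counted is not given in the sources used here. Dnmt3bb.1 is known in zebrafish from blood stem cells. The leukocyte markers summed to 14.3 to 16.4 RPKM in hair cells, with 5 of 14 at 0 in all of these samples, and to 551 to 598 RPKM in nsSCs, where all 13 tested were higher. All 9 red blood cell markers were higher in nsSCs as well. The part of blood cells in the dnmt3bb values was not tested, nor was that of the other cell types in any member higher in nsSCs.

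Of the TET genes, tet1 had 0.39, 0.52 and 0.33 RPKM in hair cells and 2.57, 3.05 and 2.48 RPKM in nsSCs, a log2 fold change of -2.46 ± 0.18 (adjusted p = 1.2e-05). Tet2 had 4.80, 3.98 and 4.81 RPKM against 3.50, 3.73 and 3.36 RPKM, without overlap but at a log2 fold change of 0.35 ± 0.12. After median-ratio scaling this fold change was -0.12. Tet3 had 0.86, 1.61 and 1.5 RPKM against 1.58, 1.90 and 1.62 RPKM and overlapped. Tet2 was thus the highest TET gene in both cell types, and tet1 the only one called. Summed over the class, the 7 methyltransferases had 7.78 to 9.40 RPKM in hair cells and 5.85 to 7.84 RPKM in nsSCs, which overlapped, and the 3 TET genes had 6.05 to 6.64 RPKM and 7.46 to 8.68 RPKM, which did not.

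**Figure D4:**
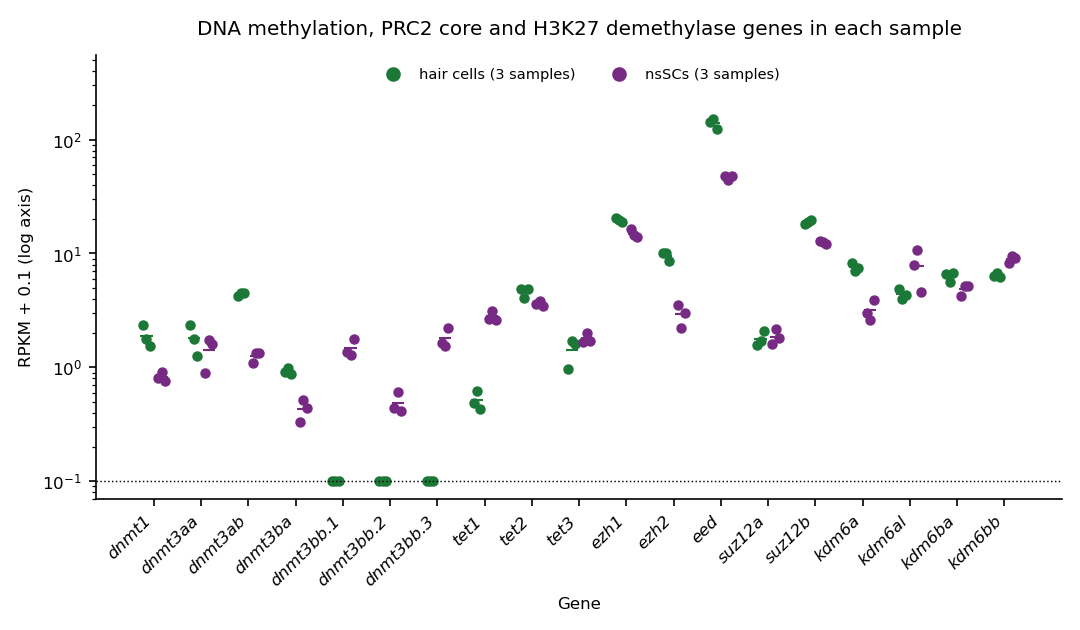
RPKM + 0.1 on a log axis for the DNA methyltransferase, tet, PRC2 core and kdm6 genes; each point is a sample, 3 of hair cells (green) and 3 of nsSCs (purple), the short lines are the means and the dotted line marks a value of 0. The 3 dnmt3bb genes lie on the dotted line in every hair cell sample, tet1 is lower and ezh2, eed and dnmt3ab are higher in hair cells, and eed is the highest gene drawn.

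The CHD genes encode ATP-dependent remodelers that slide nucleosomes and read methylated histones. Of 11 tested, 3 were higher in hair cells and 2 lower there than in nsSCs, while 6 were not called. Their shares were 27.3% and 18.2%, against 31.0% and 35.4% of all tested genes. Chd7 was the highest in hair cells, with 36.5, 40.1 and 36.6 RPKM, against 3.59, 6.06 and 5.29 RPKM in nsSCs. The log2 fold change was 2.93 ± 0.18 (limma adjusted p = 4.7e-06). Chd9, a relative of chd7, had 8.91, 7.99 and 7.32 RPKM against 2.10, 2.12 and 2.14 RPKM, a log2 fold change of 1.88 ± 0.11 (adjusted p = 2.9e-06). The other genes of that subfamily were not called, with chd6 at 1.66 ± 0.20 and 1.41 ± 0.09 RPKM and chd8 at 1.48 ± 0.07 and 1.40 ± 0.16 RPKM (SD, n = 3 each). In nsSCs chd7 and chd9 were still the highest of these 4 genes.

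Chd1, a reader of methylated H3K4, had 5.98, 7.44 and 6.09 RPKM in hair cells and 2.38, 2.62 and 2.28 RPKM in nsSCs, a log2 fold change of 1.38 ± 0.13 (adjusted p = 3.5e-05) that was 0.92 and not called after median-ratio scaling. Chd2 had 18.4, 17.8 and 17.6 RPKM against 13.9, 16.5 and 14.6 RPKM and a log2 fold change of 0.26 ± 0.08 without overlap. After median-ratio scaling this fold change was -0.22. Chd1l was not called at 4.04 ± 0.08 and 2.36 ± 0.51 RPKM.

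The NuRD remodelers chd3, chd4 and chd5 were not uniform. Chd5, known in mammals mainly from neurons, had 0.07, 0.10 and 0.04 RPKM in hair cells and 2.22, 2.74 and 2.57 RPKM in nsSCs. Its log2 fold change of -3.95 ± 0.18 (adjusted p = 9.9e-07) depends on the value added before taking logs, and was -1.71 with 1 RPKM and -5.05 with 0.01 RPKM. Chd3 had 3.88, 3.83 and 4.19 RPKM against 8.42, 10.6 and 9.13 RPKM, a log2 fold change of -1.21 ± 0.11 (adjusted p = 3.5e-05) that was not called with equal totals. Chd4b had 8.80, 9.74 and 10.3 RPKM against 6.24, 7.33 and 6.60 RPKM, and chd4a had 7.05 ± 1.27 and 5.71 ± 0.32 RPKM, both without a call. Of 13 tested neuron markers, 2 were higher in hair cells (map2 and snap25b). Another 5 were higher in nsSCs (elavl3, neflb, nefmb, stmn2a and tubb5). Their summed level was 77.5 to 80.0 RPKM in hair cells and 52.0 to 61.9 RPKM in nsSCs. The order of these sums rests on map2, with 38.6 ± 0.49 RPKM in hair cells against 4.91 ± 0.35 RPKM in nsSCs. The part of neurons in the chd5 value was not tested.

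Of other remodeler subunits, from the SWI/SNF, ISWI and INO80 families, 7 of 41 tested were higher in hair cells and 4 lower there than in nsSCs, while 30 were not called. Of all tested genes, 31.0% and 35.4% were called in these directions. The ATPases smarca5 and smarca4a had 31.6 ± 1.19 against 11.4 ± 1.05 RPKM and 26.4 ± 1.70 against 10.4 ± 1.47 RPKM. Smarca1, the ISWI relative of smarca5, had 3.55 ± 0.48 against 13.9 ± 1.45 RPKM and was higher in nsSCs. Smarcb1b was higher in hair cells (log2 fold change 2.23), and smarcd2 and smarcd3b were higher in nsSCs (-3.61 and -1.21). Dpf1, a SWI/SNF subunit known from neurons and named here after its values were seen, had 19.5 ± 0.95 RPKM in hair cells against 0.02 ± 0.02 RPKM in nsSCs.

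Zebrafish retained duplicates of many of these genes. In 18 pairs the symbols differed only in a final a or b; kat2a with kat2b and kat6a with kat6b are separate genes in all vertebrates, and the other 16 pairs are named as duplicates. The log2 ratio of the a to the b gene within a sample does not depend on the scaling between samples beyond the added 0.1 RPKM. It did not overlap between the cell types in 13 of 18 pairs, against 85.5% of the 2077 such pairs among all tested genes. In 8 pairs only a single gene was called, in 10 neither was, and in none were both.

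The widest gap among duplicates was that of kdm4aa and kdm4ab, whose log2 ratio was -4.35 ± 0.26 in hair cells and -1.55 ± 0.10 in nsSCs (SD, n = 3 each). Kdm7aa and kdm7ab were nearly even in nsSCs, at -0.03 ± 0.27, and had a ratio of -2.33 ± 0.23 in hair cells. Dnmt3aa and dnmt3ab went from 0.12 ± 0.35 in nsSCs to -1.34 ± 0.50 in hair cells. In each of these the b gene took a larger share in hair cells. The opposite was seen for kmt2ba and kmt2bb, at -1.32 ± 0.10 in hair cells and -2.75 ± 0.14 in nsSCs, and for kdm5ba and kdm5bb, at 2.44 ± 0.20 and 1.26 ± 0.05. In no pair did the more abundant gene differ between the cell types in all samples.

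**Figure D5:**
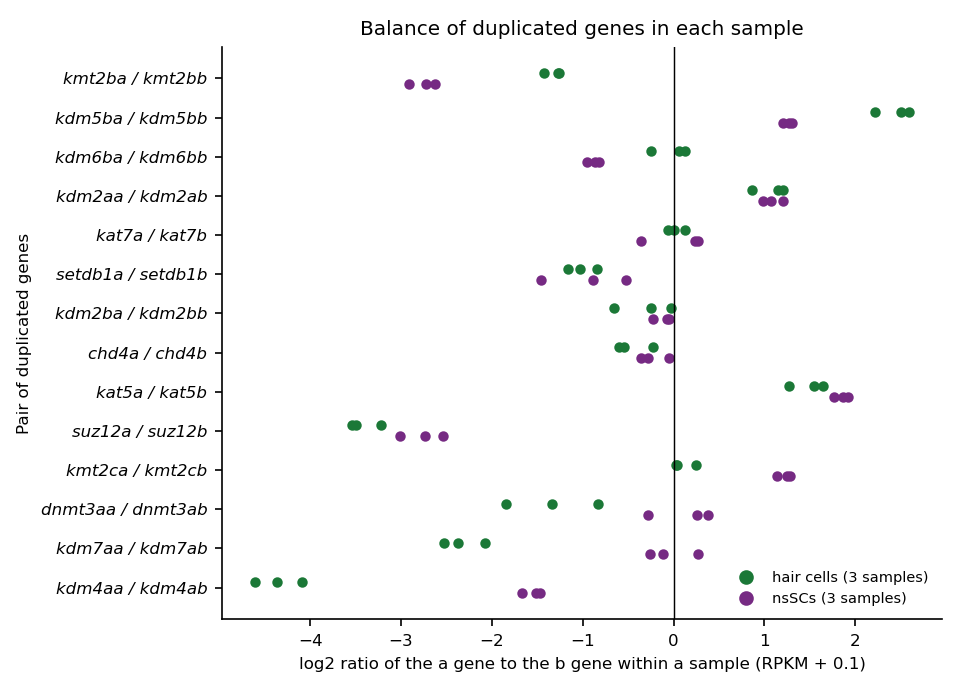
Log2 ratio of the a gene to the b gene, on RPKM + 0.1, within each sample for 14 pairs of duplicated genes; each point is a sample, 3 of hair cells (green) and 3 of nsSCs (purple), and the vertical line marks equal levels; setd1b and setd8, each with a gene at 0 in all hair cell samples, are not drawn. The points of the cell types lie apart for kdm4a, kdm7a, dnmt3a and kmt2c at the bottom and for kmt2b, kdm5b and kdm6b at the top, and intermix for kdm2a, kdm2b, kat7, setdb1 and chd4.

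Set side by side by mark, the summed levels of writers and erasers were compared on both scales, since the scaling moved several ratios past 1. The H3K4 erasers summed to 74.9 to 84.4 RPKM in hair cells and 46.2 to 57.1 RPKM in nsSCs. The 9 kmt2 and setd1 writers, taken without kmt2e, summed to 31.2 to 33.5 RPKM and 25.1 to 26.3 RPKM. The ratio of hair cells to nsSCs was 1.61 for these erasers and 1.25 for these writers, but the writers came to 1.00 when setd7 was added to them, an alternative also chosen after seeing the data, so that the order of the H3K4 writers rests on that choice. For lysine 9, the erasers summed to 50.2 to 57.4 RPKM and 30.9 to 33.9 RPKM, and the 2 setdb1 writers to 14.1 to 19.6 RPKM and 7.67 to 9.30 RPKM, with ratios of 1.66 and 2.03. Lysine 9 writers outside the chosen families were not summed, so that this order applies to the 2 setdb1 genes only. Of those, ehmt1b (10.8 against 6.62 RPKM) and ehmt2 (1.70 against 1.61 RPKM) had higher means in hair cells. Ehmt1a (2.77 against 5.23 RPKM) and suv39h1b (0.73 against 1.17 RPKM) had lower means there. After median-ratio scaling the ratios were 1.16 for the H3K4 erasers, 0.90 for the 9 writers, 1.19 for the lysine 9 erasers and 1.46 for the lysine 9 writers. For H3K27 the erasers were the 4 KDM6 genes alone. Kdm7aa and kdm7ab were counted with lysine 9 only, so that the H3K27 eraser ratio rests on that choice. Their means were 2.88 and 14.7 RPKM in hair cells and 4.49 and 4.62 RPKM in nsSCs. Without them the H3K27 ratio was 1.65 for the writers and 0.99 for the erasers, or 1.18 and 0.71 after median-ratio scaling. The DNA methyltransferases had 1.23 and 0.88 on these scales, with overlapping samples, and the TET genes had 0.79 and 0.57.

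Some members share their locus with another gene. Of 101 members matched by symbol to the RefSeq annotation of GRCz12tu, 18 overlap another protein-coding gene, among them 7 of the 41 called members matched. The overlapping gene of sirt7 is rbbp9, with mean levels of 3.36 RPKM in hair cells against 28.5 RPKM in nsSCs, and that of prmt6 is ntng1a, with 0.36 and 4.50 RPKM. Both of these neighbours had the opposite order to the member. The neighbour of chd5, rnf207a, was listed at 0 in hair cells and had 0.58 RPKM in nsSCs, the same order as chd5. Whether reads were counted by strand is not given in the sources used here, and the part of the overlapping genes in these values was not tested.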

How the data were processed

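RNA-seq was measured in 3 hair cell and 3 nsSC samples, given as separate biological replicates. The deposited values are RPKM, which the authors obtained from cDNA amplified with a low-input kit, reads mapped to GRCz10 with CLC Genomics Workbench and HTSeq count (versions not given in the sources used here). They have 2 decimals. Of 35919 entries, 31701 genes had a value in every sample. The table holds no counts, so no depth per sample can be read from it; the methods give an approximate read number that is the same for all samples.

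Genes whose mean reached 0.1 RPKM in either cell type (22374) were fitted with limma 3.58.1 (trend, robust; R 4.3.3) on log2(RPKM + 0.1), p-values were adjusted by Benjamini-Hochberg over all of them, and calls required an adjusted p under 0.05 and 2-fold. An exact permutation test of 3 against 3 cannot go below p = 0.1. The members and lists were chosen with earlier results of these data known. In each class the genes named by rule were those called with at least 10 RPKM, up to 5 a direction, and the 2 most abundant, overall and among those not called; of each partner list, up to 3 called genes a direction by mean RPKM. Any other gene was named after its values were seen. Alternatives were other pseudocounts (1 and 0.01 RPKM), filters (1 RPKM and none), scalings, moderation, a replicate block, samples left out, the methods' own call rule and fold minimums of 4 and none. RefSeq's GRCz12tu table served for names and neighbouring genes.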

Additional observations from a re-analysis of the deposited data

How the results depend on the processing

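The RPKM scale sets the zero point of every difference. The median log2 fold change of the members, 0.51 with the RPKM as deposited, was 0.038 after median-ratio scaling, 0.995 with equal totals and 0.147 with equal totals without mitochondrial genes. Equal totals gave 51 members higher in hair cells in place of 31, and over all tested genes 8756 in place of 6929. With a 4-fold minimum 14 members were higher in hair cells and 6 were higher in nsSCs, and with no fold minimum 60 and 19 were. Over all tested genes, 9460 and 9463 were called with no fold minimum, or 84.6%. Leaving out each sample gave 29 to 33 and 12 to 14 calls and medians of 0.476 to 0.551. With a pseudocount of 1 RPKM the calls were 24 and 9, and over all genes 5278 and 4516 in place of 6929 and 7917; with a 4-fold minimum these were 4008 and 5420. Without a filter 45.6% of all genes were called.

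Of the called members, 21 of 31 and 8 of 12 kept their call in all 16 settings at the 2-fold minimum, as did 34 of the 60 not called. The 39 called members above 0 in hair cells kept their sign in all of them, while 20 uncalled members turned sign under median-ratio scaling. The replicate number as a block gave the same 31 and 12 calls. Hair cell and nsSC samples of the same number deviated from their group means with correlations of -0.05, 0.02 and 0.00. Those of different numbers had correlations from -0.05 to 0.05. With 3 samples in each cell type, these values cannot show whether samples of the same number share fish. The study's methods describe taking both cell types from each zebrafish. Without counts, counting error could not be given, and a value of 0 does not show that a transcript is absent.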

Other observations

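Further genes around these enzymes also differed between the cell types. Among 52 tested writers and erasers outside the chosen families, 14 were higher in hair cells and 7 lower there than in nsSCs, while 31 were not called. Of all tested genes, 31.0% and 35.4% were called in these directions. Padi2, a peptidylarginine deiminase that citrullinates histones and other proteins, had 50.1 ± 2.04 RPKM in hair cells against 5.51 ± 0.19 RPKM in nsSCs (SD, n = 3 each), a log2 fold change of 3.16 ± 0.06 (SE; limma adjusted p = 2.1e-08). Ogt.2, an O-GlcNAc transferase, and jade1, a partner of the acetyltransferase KAT7, were higher in hair cells with log2 fold changes of 1.43 and 1.35. The SMYD methyltransferases went both ways. Smyd4, named after its values were seen, was higher in hair cells with a log2 fold change of 1.05. In nsSCs the higher genes included 3 named by rule: smyd1a, known from muscle, had 0.03 ± 0.04 against 7.76 ± 0.93 RPKM, smyd3 had 3.37 ± 0.25 against 7.48 ± 0.24 RPKM and smyd5 had 1.74 ± 0.14 against 6.62 ± 0.94 RPKM. Of 13 muscle markers, 10 were higher in nsSCs, with a summed level of 44.8 to 48.7 RPKM in hair cells and 1672 to 1870 RPKM in nsSCs, and their part in the smyd1a value was not tested.

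Among 24 tested partners of DNA methylation, 6 were higher in each cell type. The GADD45 genes, stress-induced and linked to DNA demethylation, were divided: gadd45ba had 481 ± 13.7 against 135 ± 3.67 RPKM, gadd45ga 112 ± 5.27 against 20.7 ± 1.27 RPKM and gadd45bb 46.2 ± 0.41 against 14.3 ± 0.35 RPKM, all higher in hair cells. Gadd45aa had 6.22 ± 1.19 RPKM in hair cells against 23.4 ± 2.63 RPKM in nsSCs and was higher in nsSCs. Mat2ab, a subunit of the enzyme that makes the methyl donor, had 2.61 ± 0.82 against 21.5 ± 0.77 RPKM. Its more abundant duplicate mat2aa had the opposite order without a call, with 44.1 ± 2.54 RPKM in hair cells against 30.7 ± 2.17 RPKM in nsSCs. Apobec2a had 0.95 ± 0.22 against 3.46 ± 0.84 RPKM. Of 28 tested histone readers, 11 were higher in hair cells and 4 lower there than in nsSCs, while 13 were not called. These counts also stand beside the 31.0% and 35.4% of all tested genes. The heterochromatin protein duplicates cbx3b and cbx3a were called in opposite directions, with 80.0 ± 4.69 against 9.68 ± 1.47 RPKM and 30.5 ± 0.63 against 72.3 ± 6.0 RPKM. The bromodomain genes brd2a and brdt were higher in hair cells with log2 fold changes of 1.86 and 1.90, and cbx1b and ing5b were higher in nsSCs with -1.16 and -3.64. Over the 7 partner lists of the report, 38.6% of 228 tested genes were called, below the 66.4% of all tested genes.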
